A study of Homo sapiens with 12 samples.

Results

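The interferon stimulated effector genes are the genes that a cell transcribes after interferon reaches its receptor and that act against a virus or adjust the response. They were chosen by gene symbol from a list of antiviral effectors and other interferon-induced genes, leaving out the nucleic acid sensors, the STATs and the IRFs. All 38 symbols were found among the 56832 genes of the table. The study measured RNA in DU145, an established human prostate cancer cell line, to follow RAC1, a small GTPase that acts on actin, downstream of the EGF receptor and the exchange factor VAV2. RNA-seq was done on 12 libraries, 2 biological replicates of each of 6 lines, and the replicate number is also the batch number in the labels. The 3 RAC1-positive lines, given as WT, were the parental DU145 cells and sgNTC clones 1 and 2, which both received the guide sgNTC_1. The 3 RAC1 knockout lines were sgRAC1 clone 1, made with the guide sgRAC1_1, and sgRAC1 clones 2 and 3, both made with sgRAC1_2. Each sgNTC or sgRAC1 line was grown from 1 cell after transfection with Cas9 and its guide RNA, whereas the parental cells were not cloned. All lines were grown in RPMI with 10% fetal bovine serum, and the labels name no interferon, virus or other stimulus. The genotype belongs to the line, so the line is the replicate of the genotype comparison, with n = 3 lines on each side.

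Type I interferons bind the receptor pair IFNAR1 and IFNAR2, whose kinases JAK1 and TYK2 phosphorylate transcription factors of the STAT family. With IRF9 these form ISGF3, which binds the interferon stimulated response element (ISRE) in the promoters of the effector genes, while interferon gamma acts through another element, the gamma activated site (GAS). Many effector genes can also be transcribed at a low level without interferon, through unphosphorylated STATs or IRFs.

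The promoters show the letters through which this class of genes is known to be read. RefSeq promoter windows on GRCh38.p14, from 250 bases before to 50 bases after each start, were found by symbol for 31 of the 38 members, in 44 windows because some genes have several starts. IFITM2, IFIT2, OAS2, TRIM22, USP18, OASL and MX2 had none. The windows were searched on both strands for the ISRE core, a repeat of GAAA with any 2 bases between its copies (TTTC, any 2 bases and TTTC on the other strand), and for the GAS core TTCNNNGAA, which is its own reverse complement. The ISRE core was in a window of 23 of 31 members, or 74.2%, against 4.38% of 27305 genes with a window. By window these shares were 63.6% of 44 and 3.57% of 35116. The GAS core was in 10 of 31 members (32.3%) and in 9.38% of all genes. ISRE and GAS cores overlapped in some windows, such as that of BST2, and ISRE cores overlapped each other in ISG15, BST2 and HERC5.

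Parts of 8 promoters are printed 5′ to 3′ on the strand of the gene, with the ISRE cores in capitals, and all of them end before the start site. IFIT1 (chr10:89392467-89392569, plus strand), IFIT3 (chr10:89327801-89327924, plus strand) and ISG15 (chr1:1013344-1013439, plus strand) each hold a pair of cores, ISG20 (chr15:88638907-88638996, plus strand) and IFI44 (chr1:78649731-78649788, plus strand) hold 1 and IFI6 (chr1:27672236-27672388, minus strand) holds 3. These 6 genes had knockout line means above every RAC1-positive line mean (values below). IFIT5 (chr10:89414483-89414567, plus strand) and HERC5 (chr4:88456954-88457094, plus strand) are shown because they also hold cores while their lines overlapped, and IFIT5 has 1 more core across its start that is not printed.
IFIT1: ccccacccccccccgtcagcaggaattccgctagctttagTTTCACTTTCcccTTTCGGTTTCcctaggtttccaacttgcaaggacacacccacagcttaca
IFIT3: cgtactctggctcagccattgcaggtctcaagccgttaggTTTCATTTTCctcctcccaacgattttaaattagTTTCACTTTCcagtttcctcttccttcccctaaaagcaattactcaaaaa
ISG15: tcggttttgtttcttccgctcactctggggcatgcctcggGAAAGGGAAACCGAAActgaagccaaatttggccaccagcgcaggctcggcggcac
ISG20: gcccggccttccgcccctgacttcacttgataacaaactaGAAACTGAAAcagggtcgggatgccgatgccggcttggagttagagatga
IFI44: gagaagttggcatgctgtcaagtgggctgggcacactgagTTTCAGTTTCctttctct
IFI6: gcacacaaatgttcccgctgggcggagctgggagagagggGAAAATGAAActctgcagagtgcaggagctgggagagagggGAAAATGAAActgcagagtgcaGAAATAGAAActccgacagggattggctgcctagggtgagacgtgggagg
IFIT5: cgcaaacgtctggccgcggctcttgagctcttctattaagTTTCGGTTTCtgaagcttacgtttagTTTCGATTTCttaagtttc
HERC5: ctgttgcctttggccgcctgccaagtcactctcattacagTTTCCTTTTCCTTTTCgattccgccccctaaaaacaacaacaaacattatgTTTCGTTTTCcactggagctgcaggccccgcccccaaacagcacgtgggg

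Among members above the level filter described below, the ISRE core was in 11 of 13 matched genes whose knockout lines lay apart from the RAC1-positive lines and in 8 of 10 whose lines overlapped. Those without it were UBE2L6 and IFI35, with lines apart, and HERC6 and SP100, with overlapping lines. No promoter without a core is printed. The ISRE core was in 4 of the 8 matched genes below the filter. These shares were not tested against each other. A match is a run of letters and not a measured binding site.

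**Figure D1:**
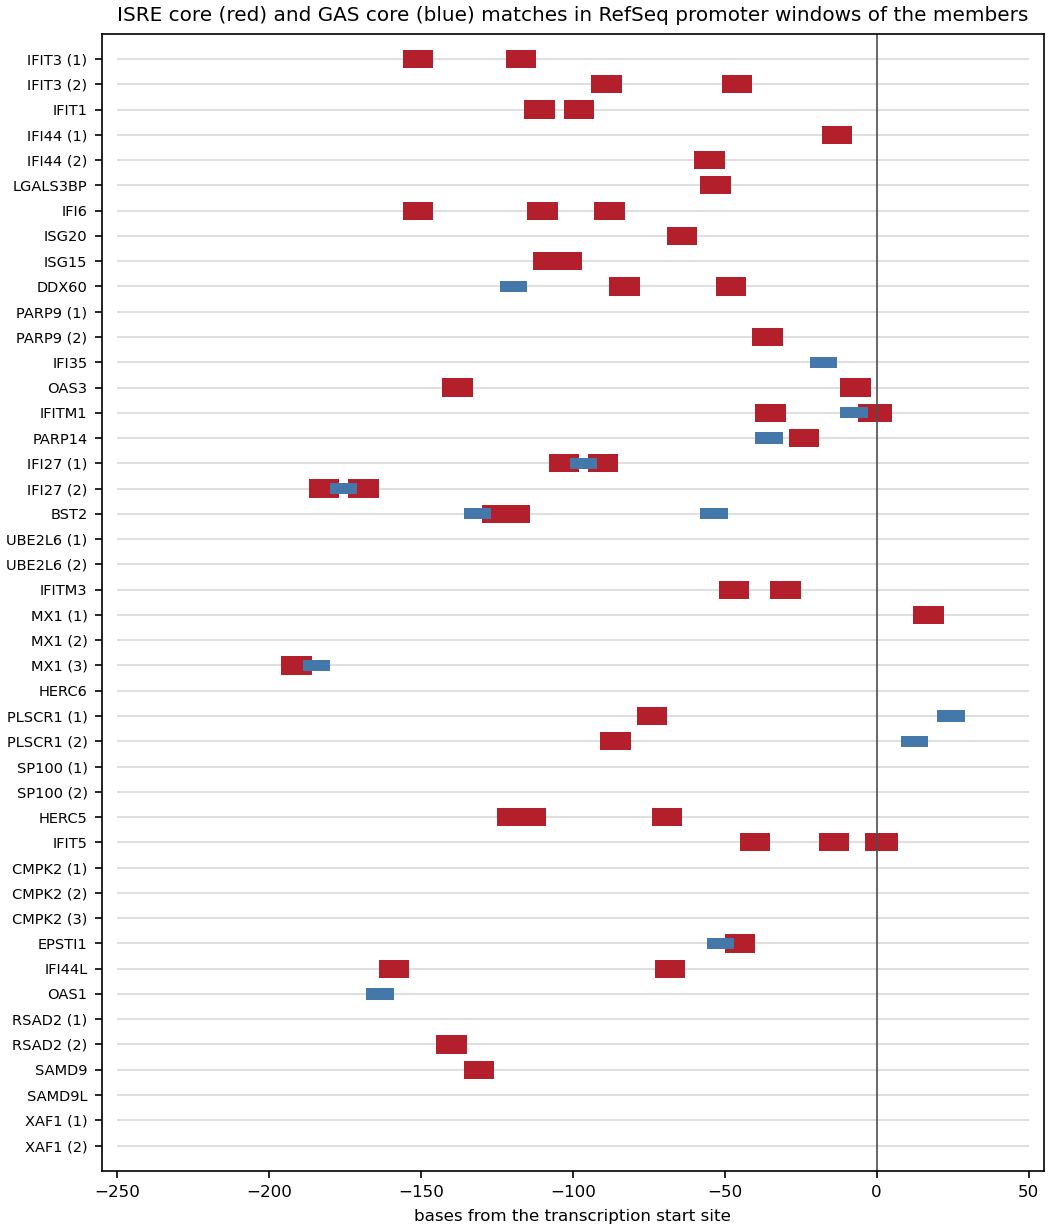
Distance in bases from the RefSeq start site (x axis, 0 is the start) of each ISRE core (red) and GAS core (blue) in the 44 promoter windows of 31 members, one row a window, with the number of the window in parentheses where a gene has several. Rows run from the members with the highest knockout minus RAC1-positive difference at the top to those below the level filter at the bottom, and red blocks are present in 28 windows, IFIT5 and HERC5 among them.

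The targeted gene checks the labels. RAC1 was at 171 and 169.6 TPM in the parental line, 188 and 149 in sgNTC clone 1, 202 and 152 in sgNTC clone 2, 47.5 and 36.5 in sgRAC1 clone 1, 59.2 and 54.2 in clone 2 and 39.6 and 40.3 in clone 3. The knockout lines kept 26.9% of the RAC1-positive mean, 46.2 ± 9.14 against 172 ± 4.6 TPM (SD over n = 3 lines), with a log2 difference of -1.89 (SE 0.14; limma adjusted p = 0.0467), and the exact two-sided permutation test over the 20 splits of the lines gave p = 0.10, the smallest it can give. With single lines or libraries left out, the limma adjusted p of RAC1 ran from 0.0201 to 0.370, the highest without sgRAC1 clone 3. The epithelial markers KRT8, KRT18, KRT19, EPCAM and CDH1 were all above the level filter, KLK3, a prostate secretory gene, was listed at 0 in every library, and KRT5 and KRT14, which mark basal cells, were at 0 as well. Of these 5 markers, EPCAM at 43.8 ± 6.72 against 24.2 ± 2.1 TPM and CDH1 at 13.5 ± 4.13 against 3.98 ± 1.51 TPM were called higher with the 12-library fit described below. The other 3 were not called, KRT18 being at 129 ± 54.3 against 236 ± 124 TPM, KRT8 at 238 ± 64.1 against 201 ± 35.8 TPM and KRT19 at 100.2 ± 12.8 against 74.4 ± 25.3 TPM. Their part in the results was not tested. Of the leukocyte and plasmacytoid dendritic cell markers, PTPRC, CD3E and CLEC4C were at 0 in every library. The 7 leukocyte markers summed to 0.806 to 4.23 TPM in knockout libraries and 0 to 1.08 TPM in RAC1-positive ones, the 4 plasmacytoid ones to at most 1.34 and 1.71, the 5 fibroblast ones to at most 0.321 and 0.207, and the 4 endothelial ones to at most 0.791 and 0.779. CD14 alone of them passed the level filter, and its part in the differences between genotypes was not tested. TPM keeps no depth, so the depth of each library is unknown. Replicate 1 of sgNTC clone 2 stood apart, with 13608 genes above 0 against 20470 to 25156 in the other libraries and a median correlation with them of 0.872 against 0.936 to 0.954. Bulk RNA cannot tell fewer cells that express a gene from less RNA of it in each cell.

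In the RAC1 knockout lines, the IFIT genes IFIT1, IFIT2 and IFIT3, OASL and IFI44 were at 4.97 to 6.62 times the RAC1-positive level, ISG15 and ISG20 at 2.18 and 2.72 times it, and a further group, IFIT5, HERC5, SP100 and PLSCR1, was at 0.889 to 1.09 times it. These are ratios of means over lines, and clones differed. Clones 1, 2 and 3 were at 14.4, 19.5 and 38.2 TPM for IFIT1, against a RAC1-positive mean of 4.84. For OASL they were at 9.49, 10.9 and 32.3 TPM, against 2.65. No member was called in the fit to the line means. Levels are given as TPM, the share of a gene in the transcripts of its library, with transcript length divided out. A difference is taken after log2(TPM + 1), so at levels around 1 TPM or lower it is smaller than the log2 ratio of the levels. Of the 38 members, 27 reached a mean of 1 TPM in at least one genotype and were tested with 17367 genes in all, and 11 did not. Of these 27, OAS3, MX1, IFITM1, BST2, DDX60 and IFI27 passed through the knockout mean alone, so counts over the 27 lean toward higher values in the knockout lines.

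By the fit to the 6 line means, no member passed the limma adjusted p threshold of 0.05, where 0% of the 17367 genes were called higher and 0.00576% lower, which is RAC1 alone. The lowest adjusted p of a member was 0.143. At an unadjusted p under 0.05, 16 of 27 members passed against 13% of all genes. The difference was positive for 26 of 27 members and for 53.3% of all genes. The median difference of the 27 was 0.87, against 0.02 over all genes, and 0.94 over the 24 members with a mean of 1 TPM over all 12 libraries. It was 1.43 with a pseudocount of 0.1, 0.42 with a pseudocount of 5 and 0.54 over 37 members with no level filter. On the log2(TPM + 1) scale the 3 knockout line means all lay above the 3 RAC1-positive line means for 15 members (12% of all genes) and below them for none (8.52%). In TPM this held for 14 of the 15, all but PLSCR1. For 8 members, IFIT1, IFIT2, IFIT3, OASL, ISG15, ISG20, PARP14 and IFI44, all 6 knockout libraries lay above all 6 RAC1-positive libraries, where 2.14% of all genes did so. The member TPM summed to 312 in the parental line, 293 and 322 in sgNTC clones 1 and 2, and 444, 462 and 804 in sgRAC1 clones 1, 2 and 3.

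**Figure D2:**
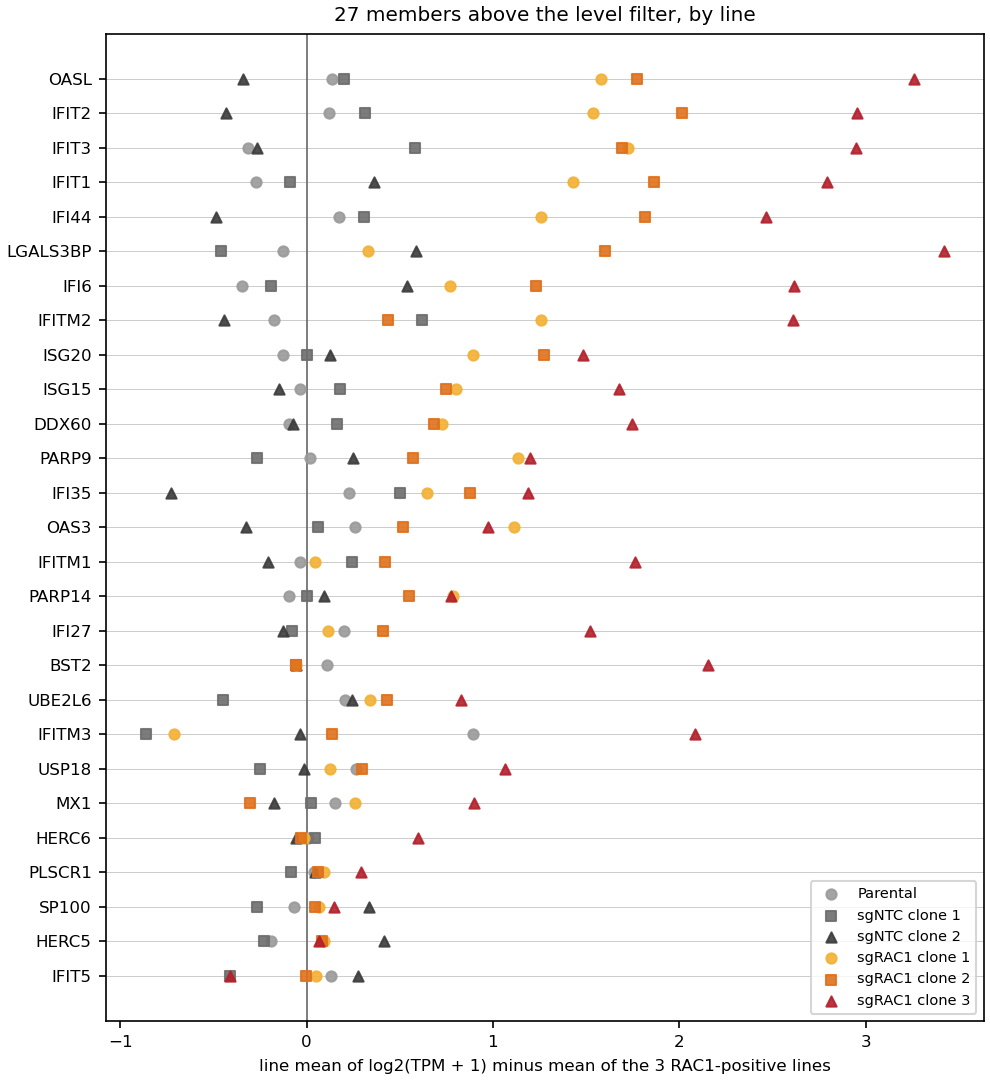
Line mean of log2(TPM + 1) minus the mean of the 3 RAC1-positive lines (x axis) for the 27 members above the level filter (y axis), one marker for each of 6 lines, grey for RAC1-positive and coloured for knockout. The knockout markers lie to the right of all grey markers for 15 members, sgRAC1 clone 3 is the farthest right for 22, and the markers mix for IFIT5, HERC5 and SP100.

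The IFIT proteins bind foreign RNA, IFIT1 by its unmethylated cap, and their 4 genes lie within one cluster on chromosome 10 (GRCh38, GENCODE 29; IFIT2 at chr10:89283694-89309276 on the plus strand through IFIT5 at chr10:89414586-89421001). IFIT1 was at 4.18 and 3.22 TPM in the parental line, 3.13 and 5.79 in sgNTC clone 1, 7.76 and 4.98 in sgNTC clone 2, 11.8 and 17 in sgRAC1 clone 1, 19.5 and 19.6 in clone 2 and 40.7 and 35.6 in clone 3. IFIT2 was at 6.62 and 3.15 TPM in the parental line, 4.85 and 6.04 in sgNTC clone 1, 2.49 and 3.18 in sgNTC clone 2, 11.5 and 17 in sgRAC1 clone 1, 19.3 and 20.4 in clone 2 and 34.1 and 44.5 in clone 3. IFIT3 was at 4.53 and 4.89 TPM in the parental line, 8.67 and 10.7 in sgNTC clone 1, 3.87 and 6.13 in sgNTC clone 2, 17.6 and 28.6 in sgRAC1 clone 1, 19.7 and 24.4 in clone 2 and 44.4 and 65 in clone 3. In all 3 genes the lowest knockout library lay above the highest RAC1-positive one, and both clone 3 libraries were the highest. The line means of IFIT1 were 24 ± 12.5 against 4.84 ± 1.38 TPM (SD over n = 3 lines, here and for every mean that follows), a log2 difference of 2.03 (SE 0.35; limma adjusted p = 0.143). Those of IFIT2 gave a log2 difference of 2.17 (SE 0.37; limma adjusted p = 0.143), and those of IFIT3 gave a log2 difference of 2.12 (SE 0.39; limma adjusted p = 0.15). The size held within each batch, with 1.95 in batch 1 and 2.11 in batch 2 for IFIT1 and 1.94 in batch 1 and 2.39 in batch 2 for IFIT2. IFIT5 was at 25.4 and 27.7 TPM in the parental line, 22.6 and 14.1 in sgNTC clone 1, 40.8 and 21.2 in sgNTC clone 2, 28.6 and 21.8 in sgRAC1 clone 1, 26.1 and 22.2 in clone 2 and 15.4 and 20.8 in clone 3. The fourth gene of the cluster thus had overlapping lines, and its difference of -0.12 had a 95% interval of -0.63 to 0.39. Without replicate 1 of sgNTC clone 2, its highest library, the difference of IFIT5 was 0.032.

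The 2′-5′-oligoadenylate synthetases make the messenger that activates RNase L, and OASL, their relative without that activity, enhances RIG-I signalling. OASL was at 3.57 and 2.2 TPM in the parental line, 1.71 and 4.9 in sgNTC clone 1, 1.45 and 2.08 in sgNTC clone 2, 8.17 and 10.8 in sgRAC1 clone 1, 10.3 and 11.6 in clone 2 and 33.7 and 30.9 in clone 3. All 6 knockout libraries were above all RAC1-positive ones, with both clone 3 libraries the highest. The line means were 17.6 ± 12.8 against 2.65 ± 0.795 TPM, a log2 difference of 2.20 (SE 0.44; limma adjusted p = 0.156). OASL lies at chr12:121019111-121039242 on the minus strand, apart from the cluster of OAS1, OAS3 and OAS2. OAS3 was at 1.06 and 1.33 TPM in the parental line, 0.876 and 0.939 in sgNTC clone 1, 0 and 1.14 in sgNTC clone 2, 2.21 and 3.88 in sgRAC1 clone 1, 1.94 and 1.32 in clone 2 and 2.16 and 3.08 in clone 3. Every line mean of the knockout was above 1 TPM and above the RAC1-positive lines, though single libraries met at 1.32 and 1.33 TPM. OAS3 was listed at 0 in replicate 1 of sgNTC clone 2, and its difference of 0.87 (SE 0.27; limma adjusted p = 0.265) was 0.69 without that library. OAS1 was at 0 in all 6 RAC1-positive libraries and reached 0.744 TPM in clone 3, and OAS2 stayed below 1 TPM in every library. Of the dynamin-like MX GTPases, which block viral nucleocapsids, MX2 did not exceed 0.257 TPM. MX1 was at 1.42 and 0.974 TPM in the parental line, 0.978 and 1.02 in sgNTC clone 1, 0.594 and 0.908 in sgNTC clone 2, 1.11 and 1.64 in sgRAC1 clone 1, 0.332 and 0.916 in clone 2 and 2.14 and 3.28 in clone 3. The lines of MX1 overlapped, with sgRAC1 clone 2 lowest and clone 3 highest, at a log2 difference of 0.29 (SE 0.34; limma adjusted p = 0.741).

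ISG15 is a ubiquitin-like protein that is attached to other proteins by UBE2L6 and the ligase HERC5 and removed by USP18, which also holds back receptor signalling. ISG15 was at 52.4 and 80.9 TPM in the parental line, 63.3 and 90.5 in sgNTC clone 1, 48.9 and 73.7 in sgNTC clone 2, 119 and 115 in sgRAC1 clone 1, 101 and 126 in clone 2 and 211 and 219.8 in clone 3. It was the most abundant member in both genotypes, and its knockout libraries did not overlap the RAC1-positive ones. The line means were 149 ± 57.9 against 68.3 ± 7.93 TPM, a log2 difference of 1.08 (SE 0.25; limma adjusted p = 0.197), and the difference was 1.31 in batch 1 and 0.85 in batch 2. ISG15 lies at chr1:1001138-1014540 on the plus strand. UBE2L6 was at 38.7 and 26.7 TPM in the parental line, 17.5 and 22.9 in sgNTC clone 1, 30.3 and 36.1 in sgNTC clone 2, 33.4 and 37.5 in sgRAC1 clone 1, 39.9 and 35.9 in clone 2 and 60.0 and 41.9 in clone 3. Its line means lay apart while its libraries overlapped, at a log2 difference of 0.54 (SE 0.22; limma adjusted p = 0.375). USP18 had line means of 26.2 ± 9.9 against 17.7 ± 3.3 TPM, and clone 3 was its highest line, with 39.5 and 35.6 TPM against at most 26.2 in every other library. HERC5 was at 3.2 ± 0.0418 against 3.28 ± 1.41 TPM and HERC6, its close relative, at 8.41 ± 2.51 against 7.15 ± 0.273 TPM. The 3 knockout lines of HERC5 lay inside the range of the RAC1-positive lines, whose highest library was replicate 1 of sgNTC clone 2 at 7.51 TPM.

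The IFITM proteins and BST2 (tetherin) act at membranes, the first against viral fusion and the second by holding budding virus on the cell. BST2 was at 0.261 and 0 TPM in the parental line, 0 and 0 in sgNTC clone 1, 0 and 0 in sgNTC clone 2, 0 and 0 in sgRAC1 clone 1, 0 and 0 in clone 2 and 2.74 and 4.71 in clone 3. BST2 was thus listed at 0 in 9 libraries and was seen at more than 1 TPM in clone 3 alone, so the positive difference of 0.68 between the genotypes rested on 1 clone. IFITM1 was at 0.27 and 0 TPM in the parental line, 0.558 and 0.199 in sgNTC clone 1, 0 and 0 in sgNTC clone 2, 0.422 and 0 in sgRAC1 clone 1, 0.53 and 0.562 in clone 2 and 4.54 and 1.78 in clone 3. IFITM2 was at 4.16 and 0.419 TPM in the parental line, 3.51 and 3.91 in sgNTC clone 1, 0 and 4.06 in sgNTC clone 2, 4.43 and 8.86 in sgRAC1 clone 1, 2.23 and 4.33 in clone 2 and 31.8 and 9.63 in clone 3. IFITM3 ran from 0 to 4.55 TPM in the RAC1-positive libraries, from 0.338 to 2.70 in clones 1 and 2, and was at 13.2 and 7.82 in clone 3. All 4 genes were highest in clone 3, and for none did the 3 knockout lines lie apart from the RAC1-positive lines. Without clone 3 the differences of BST2 and IFITM3 turned to -0.056 and -0.29. The IFITM genes are close copies on chromosome 11, and GENCODE 29 has IFITM1 and IFITM2 overlapping (both end at position 315272), so their separate levels are uncertain.

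ISG20 is an exonuclease that degrades viral RNA. ISG20 was at 4.36 and 1.75 TPM in the parental line, 3.11 and 3.3 in sgNTC clone 1, 4.17 and 3.05 in sgNTC clone 2, 7.37 and 6.27 in sgRAC1 clone 1, 9.25 and 9.07 in clone 2 and 12.7 and 9.05 in clone 3. The knockout libraries were all above the RAC1-positive ones, and the line means of 8.95 ± 2.03 against 3.29 ± 0.285 TPM gave a log2 difference of 1.22 (SE 0.19; limma adjusted p = 0.143), among the smallest p of the members. PARP9 and PARP14 are ADP-ribosyltransferase family members that act in interferon signalling. PARP14 was at 3.17 and 2.77 TPM in the parental line, 3.39 and 3.1 in sgNTC clone 1, 3.9 and 3.18 in sgNTC clone 2, 6.87 and 5.78 in sgRAC1 clone 1, 5.24 and 5.15 in clone 2 and 6.6 and 5.94 in clone 3. The libraries did not overlap and the 3 clones were level, at 5.93 ± 0.638 against 3.25 ± 0.285 TPM and a log2 difference of 0.70 (SE 0.16; limma adjusted p = 0.193). PARP9 was at 2.16 and 1.81 TPM in the parental line, 1.41 and 1.47 in sgNTC clone 1, 3.43 and 1.75 in sgNTC clone 2, 5.0 and 5.93 in sgRAC1 clone 1, 3.46 and 3.26 in clone 2 and 6.79 and 4.83 in clone 3. Its line means lay apart at a log2 difference of 0.97 (SE 0.24; limma adjusted p = 0.21), and its libraries touched because replicate 1 of sgNTC clone 2 was at 3.43 TPM. DDX60, a helicase-like protein linked to RIG-I signalling, was at 0.389 and 0.287 TPM in the parental line, 0.535 and 0.67 in sgNTC clone 1, 0 and 0.85 in sgNTC clone 2, 1.01 and 1.77 in sgRAC1 clone 1, 0.763 and 1.98 in clone 2 and 3.0 and 4.76 in clone 3. Its line means lay apart, with a log2 difference of 1.05 (SE 0.34; limma adjusted p = 0.278), and 0.90 without the library listed at 0. RSAD2 (viperin) and CMPK2, which make an antiviral nucleotide together and overlap on opposite strands of chromosome 2, stayed at or below 0.118 TPM in all 12 libraries.

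The IFI genes were named for their induction and share no single function. IFI44 was at 0.43 and 2.53 TPM in the parental line, 1.18 and 1.8 in sgNTC clone 1, 0 and 1.02 in sgNTC clone 2, 2.91 and 4.82 in sgRAC1 clone 1, 6.74 and 5.36 in clone 2 and 7.83 and 12.7 in clone 3. The knockout libraries were all above the RAC1-positive ones, at 6.73 ± 3.25 against 1.16 ± 0.562 TPM and a log2 difference of 1.85 (SE 0.36; limma adjusted p = 0.152). IFI6, which holds off cell death and flavivirus replication, was at 6.75 and 5.23 TPM in the parental line, 4.87 and 9.21 in sgNTC clone 1, 17.7 and 7.84 in sgNTC clone 2, 9.49 and 20.7 in sgRAC1 clone 1, 19.9 and 19.7 in clone 2 and 51.8 and 54.9 in clone 3. Its line means lay apart at a log2 difference of 1.54 (SE 0.48; limma adjusted p = 0.265), and its clones spread widely, at 15.1, 19.8 and 53.3 TPM. IFI35 had a difference of 0.90, of which 0.52 was left without replicate 1 of sgNTC clone 2, where it was at 2.59 TPM against 11.5 to 20.8 in the other RAC1-positive libraries. IFI27 was below 1 TPM except in clone 3, at 1.92 and 2.77 TPM.

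LGALS3BP is a secreted glycoprotein that binds galectin-3. LGALS3BP was at 1.79 and 0.18 TPM in the parental line, 0.168 and 0.781 in sgNTC clone 1, 2.85 and 1.31 in sgNTC clone 2, 1.15 and 1.91 in sgRAC1 clone 1, 5.11 and 4.91 in clone 2 and 24.5 and 16.7 in clone 3. Its 3 knockout clones formed 3 levels, of which the lowest overlapped the RAC1-positive lines, so that a log2 difference of 1.78 (SE 0.73; limma adjusted p = 0.367) stood beside line means of 9.04 ± 10.2 against 1.18 ± 0.821 TPM. PLSCR1, a phospholipid scramblase that limits viral entry, was at 59.1 and 78.3 TPM in the parental line, 71.7 and 54.5 in sgNTC clone 1, 94.3 and 49.4 in sgNTC clone 2, 66.6 and 75.1 in sgRAC1 clone 1, 68.5 and 69.8 in clone 2 and 73.6 and 89.6 in clone 3. Its libraries overlapped widely, with a log2 difference of 0.15 (SE 0.10; limma adjusted p = 0.58). SP100, a component of nuclear bodies, was at 31.4 ± 1.21 against 31 ± 7.43 TPM, with a log2 difference of 0.09 (SE 0.16; limma adjusted p = 0.843). XAF1, EPSTI1, TRIM22, SAMD9 and IFI44L did not exceed 0.562 TPM in any library, and SAMD9L was listed at 0 in all 12.

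**Figure D3:**
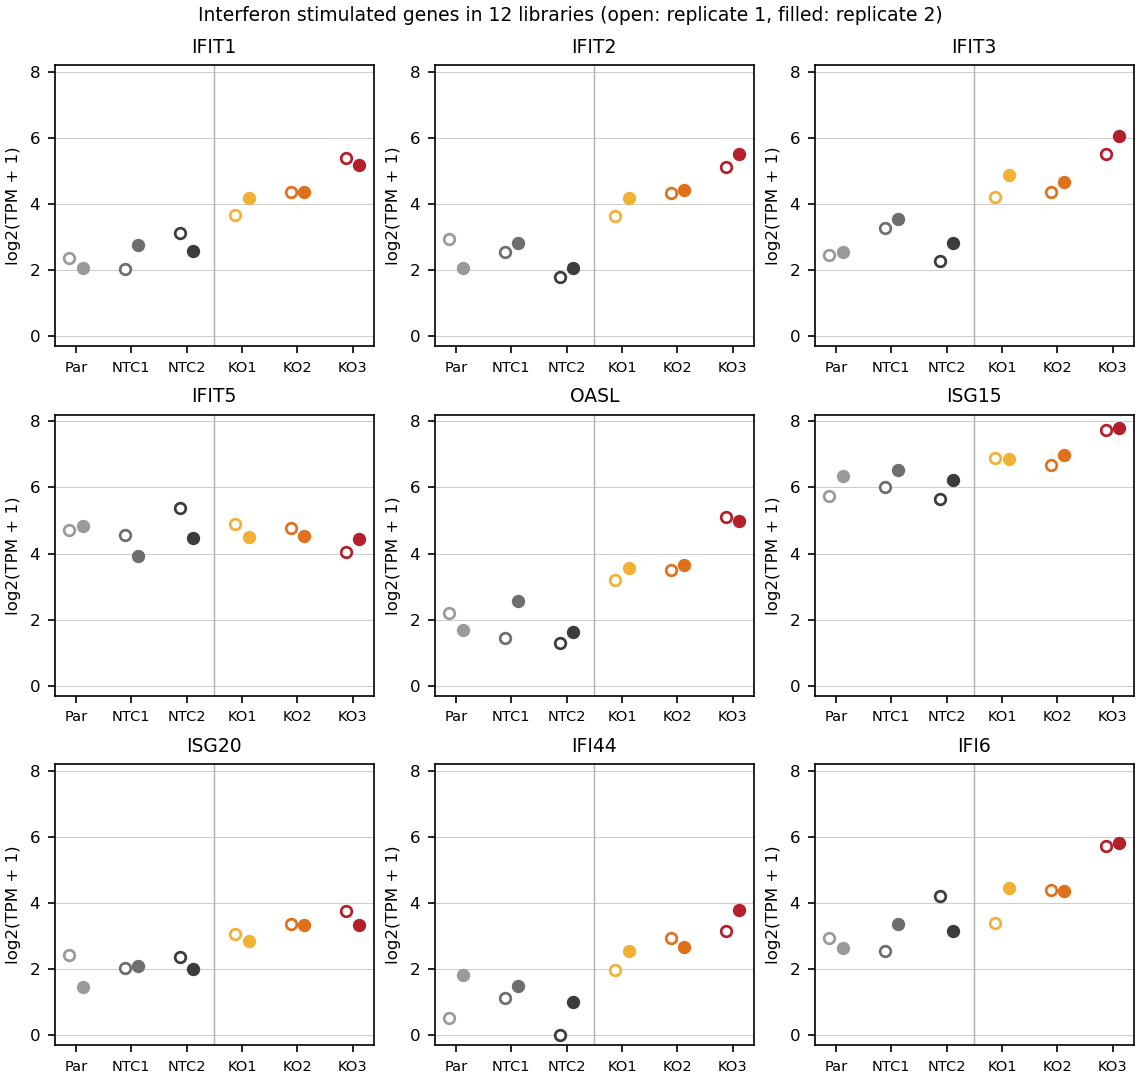
log2(TPM + 1) of 9 members (y axis) in the 12 libraries, by line (x axis: Par is parental, NTC1 and NTC2 the sgNTC clones, KO1 to KO3 the sgRAC1 clones), open circles for replicate 1 and filled for replicate 2. IFIT1, IFIT2, IFIT3, OASL, ISG15, ISG20 and IFI44 have all 6 knockout circles above all RAC1-positive ones, IFI6 has overlapping libraries, and IFIT5 has no such split.

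In a fit to all 12 libraries in which the line was a random block, 9 members passed the limma adjusted p threshold and all 9 were higher in the knockout lines, where 1.69% of all genes were called higher and 0.432% lower. They were IFIT1, IFIT2, IFIT3, OASL, ISG15, ISG20, PARP9, PARP14 and IFI44. Their adjusted p ran from 0.00504 for IFIT1 to 0.026 for PARP9. The same 9 passed with the replicate number as a further block (1.42% of all genes higher). Without replicate 1 of sgNTC clone 2, IFI6 passed as well, making 10, while the genes called in either direction went from 2.12% to 3.57% of all genes. The correlation within lines was estimated over all genes at -0.03, so this fit treats the libraries of a line as nearly independent samples of the genotype.

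Each knockout clone was also set against the mean of the RAC1-positive lines, to see which members each clone carried. Clone 3 stood above the other clones for most members, IFIT1, IFIT2 and IFIT3 lay above every RAC1-positive library in all 3 clones, and BST2, USP18 and the IFITM genes had their highest levels in clone 3. The contrasts share the RAC1-positive lines, and their p-values rest only on how far the 2 libraries of each line differed. In clone 1, 1 member was called higher, IFIT3, where 0.432% of all genes were. In clone 2, IFIT1, IFIT2 and IFIT3 were called (0.167% of all genes), and with the replicate block IFIT3 alone. In clone 3, 11 members were called (0.927% of all genes): IFIT1, IFIT2, IFIT3, OASL, BST2, ISG15, USP18, ISG20, IFI6, IFI44 and LGALS3BP. BST2 had passed the level filter only because of its level in clone 3, so its call there is not independent of the filter. With the filter on the mean over all 12 libraries BST2 was not tested. In that setting 10 of 24 members were called in clone 3, where 1.09% of all genes were called in either direction. No member was called lower in any clone, where 0.0518%, 0.0288% and 0.155% of all genes were in clones 1, 2 and 3. The median difference of the 27 members was 0.64 in clone 1, 0.52 in clone 2 and 1.52 in clone 3, against 0.02, 0.02 and 0.03 over all genes. Over the 24 members with a mean of 1 TPM over all 12 libraries it was 0.75, 0.56 and 1.34.

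Side by side, the differences of IFIT3 were 1.73, 1.69 and 2.95 in clones 1, 2 and 3 (SE 0.25; limma adjusted p = 0.0279, 0.048 and 0.00187). Those of IFIT1 were 1.43, 1.87 and 2.79, and those of OASL 1.58, 1.77 and 3.26. ISG15 gave 0.80, 0.75 and 1.68. PARP14 was nearly level across the clones at 0.79, 0.55 and 0.78, and none of these passed. LGALS3BP ran from 0.33 through 1.60 to 3.42, of which the last passed. Clone 3 was the highest knockout line for 23 of 27 members, against 37.7% of all genes, and the highest of all 6 lines for 22, against 20% of all genes. IFITM1 and IFI27, like BST2, had passed the level filter only through clone 3, so their ranks there are not independent of the filter. The members in which another knockout line was highest were IFIT5, OAS3, HERC5 and PARP14 when line means were ranked in TPM.

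The counts per clone rest on few libraries. The share of all genes called in either direction moved with them and is given beside each. For clone 3 the count of 11 (1.08% of all genes) was 18 without replicate 2 of sgNTC clone 2 (3.86%), 2 without replicate 1 of sgRAC1 clone 3 (IFIT2 and IFIT3; 0.161%) and 5 without its replicate 2 (0.42%). For clone 1 the count of 1 (0.484%) fell to 0 without replicate 2 of the parental line, replicate 1 of sgNTC clone 1 or any 1 of the 6 knockout libraries (0.144% to 0.288%), and was 3 and 4 without replicates 1 and 2 of sgNTC clone 2 (0.921% and 1.8%). Without replicate 1 of the parental line the 1 call was IFIT2 in place of IFIT3 (0.248%), and without replicate 2 of sgNTC clone 1 it was OASL (0.242%). For clone 2 the count of 3 (0.196%) was 0 without replicate 1 of sgNTC clone 1 or any 1 of the 6 knockout libraries (0.0749% to 0.161%), and 1 without either parental replicate (0.0979% each) or replicate 1 of sgNTC clone 2 (0.202%). It was 2 without replicate 2 of sgNTC clone 1 (0.115%) and 4 without replicate 2 of sgNTC clone 2 (1.07%).

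**Figure D4:**
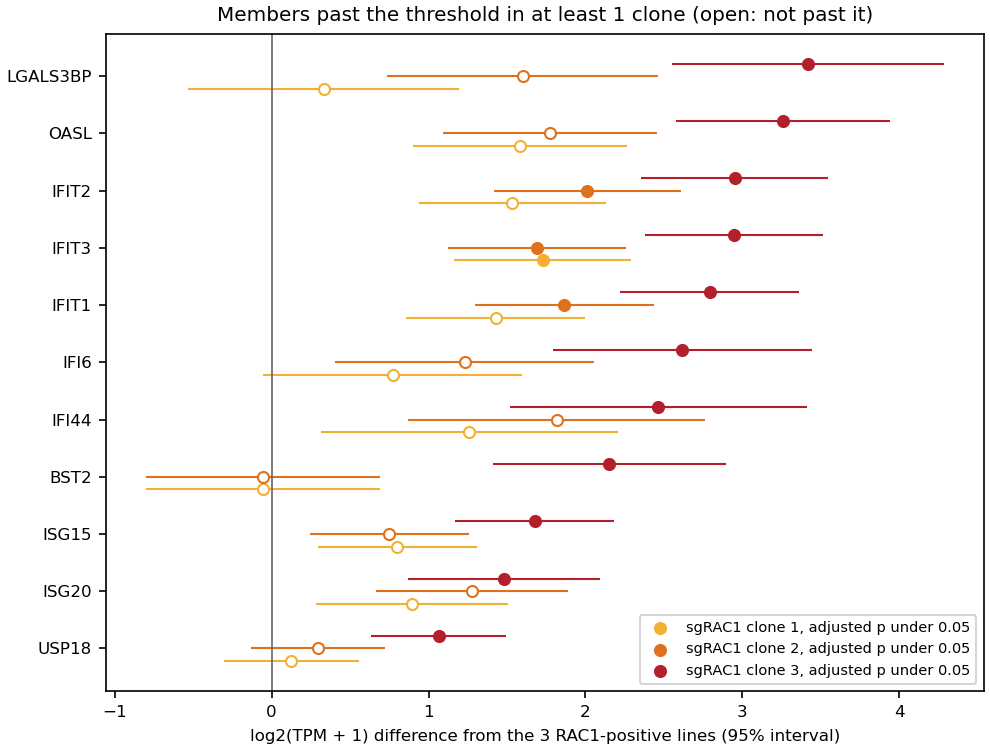
Difference in log2(TPM + 1) of each sgRAC1 clone from the mean of the 3 RAC1-positive lines (x axis), with its 95% interval, for the 11 members past the adjusted p threshold in at least 1 clone (y axis). Filled circles passed the threshold and open circles did not: all 11 are filled for clone 3, 3 for clone 2 and 1, IFIT3, for clone 1.

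The clones were then compared with each other, clones 2 and 3 sharing a guide and clone 1 carrying the other. No member passed the limma adjusted p threshold in any of the 3 contrasts, where 0%, 0.0518% and 0% of all genes were called in clone 2 minus 1, 3 minus 1 and 3 minus 2. At an unadjusted p under 0.05, 1, 15 and 16 members passed, against 3.33%, 4.3% and 3.32% of all genes. The median of the 27 members was 0 for clone 2 minus 1, 0.94 for clone 3 minus 1 and 0.93 for clone 3 minus 2. Over the 24 members with a mean of 1 TPM over all 12 libraries these medians were -0.013, 0.76 and 0.71. The lowest adjusted p was that of LGALS3BP in clone 3 minus 1, at a difference of 3.09 (95% interval 2.03 to 4.15; adjusted p = 0.0866). OASL differed by 1.48 between clones 3 and 2 (95% interval 0.65 to 2.32) and by 0.19 between clones 2 and 1 (-0.64 to 1.03). With no level filter BST2 passed in both contrasts of clone 3, where 0.233% (minus 1) and 0.0697% (minus 2) of all genes did. With a pseudocount of 5 LGALS3BP passed in clone 3 minus 1, where 0.173% of all genes did.

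Among the RAC1-positive lines, the sgNTC clones minus the parental line gave no member past the threshold (0.00576% of all genes called in either direction) and 1 at an unadjusted p under 0.05, IFITM3, against 3.92% of all genes. The median of the 27 members was -0.03 and that of all genes -0.05.

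Of the members, 25 were among the 15140 genes compared in the authors' deposited table. Of these 25, 14 were higher in the authors' deposited table at an adjusted p of 0.05 and none was lower, where 5.68% of its genes were higher and 4.06% lower. These 14 were the 9 members called with the random block and OAS3, DDX60, IFI6, IFI27 and LGALS3BP. The log2 fold changes of IFIT1, ISG15 and IFIT5 in the authors' deposited table were 2.38 (SE 0.29, adjusted p = 5.62e-13), 1.09 (SE 0.22, adjusted p = 2.89e-05) and -0.08 (SE 0.17, adjusted p = 0.863). Whether that comparison took the clones into account is not stated in those sources that were used here.

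The other genes of the pathway were read from lists kept apart from the members. Of 11 interferon ligand genes, 10 were listed at 0 in all 12 libraries, and IFNE, named after its values were seen, was at 0.603 ± 0.445 against 0.13 ± 0.148 TPM. Of 9 receptor and kinase genes, 6 passed the level filter and none was called by either fit. IFNGR2, a chain of the interferon gamma receptor, was at 17 ± 0.827 against 13 ± 1.37 TPM and the kinase JAK1 at 16.3 ± 1.58 against 13.3 ± 2.69 TPM. Of 7 STATs and IRFs, 4 passed the filter and none was called. STAT2 was at 11.7 ± 2.87 against 7.9 ± 0.285 TPM, with line means apart and a log2 difference of 0.49 (SE 0.18; limma adjusted p = 0.328), and IRF3, which acts below the sensors, was at 7.4 ± 1.08 against 7.94 ± 0.608 TPM, with lines that overlapped and a log2 difference of -0.11 (SE 0.15; limma adjusted p = 0.776). IRF9, IRF1 and IRF7 were below the filter. Of 12 nucleic acid sensors and adaptors, 9 passed the filter. DDX58, which encodes the RNA sensor RIG-I, was the 1 called with the random block (limma adjusted p = 0.0016), with all 6 knockout libraries above the RAC1-positive ones. It was at 13.1 ± 1.56 against 4.68 ± 0.842 TPM. In the fit to the line means its log2 difference was 1.32 (SE 0.17; limma adjusted p = 0.143), which did not pass. IKBKE, a kinase that acts on IRF3, was at 11.6 ± 0.595 against 8.62 ± 0.94 TPM. Of 6 negative regulators, 5 passed the filter and none was called, PTPN1 and PTPN6 having the smallest p.

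Of 11 genes named for induction by interferon gamma, 3 passed the filter. Both GBP2 and ICAM1 were called with the random block, where 1.69% of all genes were called higher. GBP2 and GBP3 passed the filter through the knockout mean alone, so this count leans toward higher values in the knockout lines. GBP2, a guanylate-binding protein, was at 1.53 and 1.34 TPM in the parental line, 0.576 and 0.857 in sgNTC clone 1, 0 and 0.748 in sgNTC clone 2, 3.34 and 5.92 in sgRAC1 clone 1, 3.83 and 5.22 in clone 2 and 8.7 and 4.51 in clone 3. The knockout libraries were all above the RAC1-positive ones, with a log2 difference of 1.77 (SE 0.28; limma adjusted p = 0.143). ICAM1, an adhesion molecule, was at 41.2 ± 12 against 22.5 ± 3.26 TPM. CXCL9, IDO1 and CIITA, which strong interferon gamma signalling turns on, did not reach the filter.

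**Figure D5:**
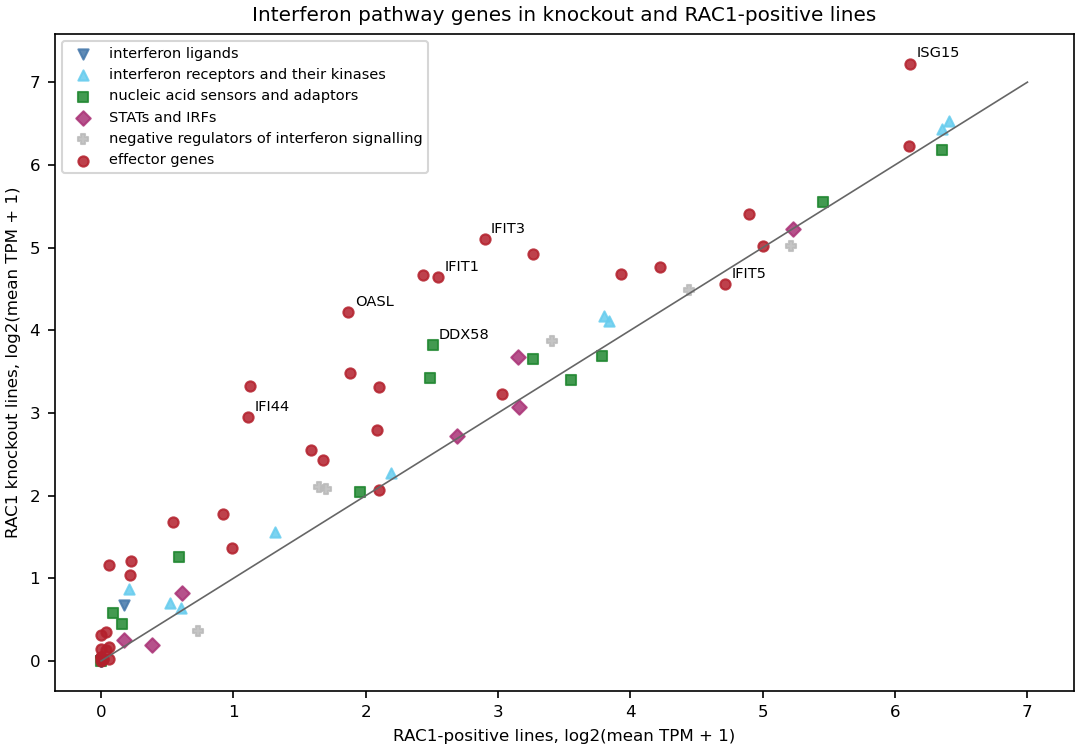
Mean over the 3 RAC1 knockout lines (y axis) against the mean over the 3 RAC1-positive lines (x axis), both as log2(mean TPM + 1), for the 38 effector genes (red) and the genes of 5 interferon pathway lists. On the diagonal the means are equal: OASL, IFIT1, IFIT3, IFI44, ISG15 and DDX58 lie above it, IFIT5 lies slightly below it, and the ligands lie near 0.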

How the data were processed

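Per the labels' protocols, 12 RNA-seq libraries were made, each with SMARTScribe reverse transcriptase and tagmentation from 160 ng of RNA. STAR 2.6.1d, bcl2fastq, DESeq2 and GRCh38 appear in the submitters' processing notes. No source used here gives the counting tool, strand setting or annotation, so close copies and genes that overlap on either strand may share reads. The authors deposited 1 table with a TPM value per gene and library, which sums to 1000000 and keeps no depth. For 15140 genes it also holds, per the file headers, the authors' mean signal of normalized counts, log2 fold change, its standard error, Wald score, p-value and adjusted p-value. No other per-sample columns were left unused (0).

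Genes were kept where the knockout or the RAC1-positive mean reached 1 TPM. limma 3.58.1 in R 4.3.3, with variances moderated along a trend with mean expression and Benjamini-Hochberg adjustment over all 17367 genes at 0.05, was run on the mean of log2(TPM + 1) over the 2 libraries of each line, 3 lines against 3. Single clones, differences between clones and the sgNTC lines were contrasts in a fit to 12 libraries with a mean per line. Alternatives were a pseudocount of 0.1 or 5, no filter or one of 5 TPM, median-of-ratios scaling, the 12 libraries with the line as a random block, the replicate block, each batch alone, and each line or library left out. A filter on the mean over all libraries, and the random block without replicate 1 of sgNTC clone 2, were chosen after seeing the data. Per the labels the replicate number marks a shared batch, so it pairs the lines. Deviations of same-numbered libraries correlated between -0.13 and 0.30 over 15 pairs of lines (median 0.03), 2 of them over 0.1. No libraries were identical.

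The members and all lists were chosen with earlier results of these data known. Values in every library are given for RAC1 and for up to 2 members of each functional class with the smallest unadjusted p, and up to 2 genes of each pathway list are named by the same rule. IFIT3, IFIT5, BST2, GBP2, the printed promoters and other names outside this rule were chosen after their values were seen. Positions come from GENCODE 29 on GRCh38 and promoter sequences from RefSeq on GRCh38.p14. The fit to the line means and a contrast of a single clone were tried on simulated data, and the random block fit was not. The outcome is not reported here, so no conclusion about any fit is drawn from it. Results for 2 genes of the lists are not reported here. Intervals are 95%.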

Additional observations from a re-analysis of the deposited data

How the results depend on the processing

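In the 6-line comparison no member was called under any change of pseudocount, filter or scaling, in either batch alone, or with any 1 line or library left out, while 9 were called with the 12 libraries and the line as a random block, 9 with the replicate block added, and 10 without replicate 1 of sgNTC clone 2. The median difference of the members was 1.43 with a pseudocount of 0.1 and 0.70 to 1.05 with single lines or libraries left out. RAC1 kept its direction throughout but missed the threshold with a pseudocount of 0.1 (-1.91), no filter (-1.89), median-of-ratios scaling (-1.89) and batch 1 alone (-1.93), and without any 1 of 5 of the 6 lines or 9 of the 12 libraries, with differences from -2.04 to -1.79 over all that were left out. Members called higher ran from 0 to 4 in clone 1, 0 to 4 in clone 2 and 2 to 18 in clone 3 with single libraries left out. The shares of all genes called in either direction ran from 0.144% to 1.8%, 0.0749% to 1.07% and 0.161% to 3.86%. Such shares are in parentheses below. Clone 1 had 2 with a pseudocount of 5 (0.564%) and 3 of 18 with the filter of 5 TPM (0.831%). Clone 2 had 0 with a pseudocount of 0.1 (0.0576%) and 0 with no filter (0.094%). It had 1 with the replicate block (0.104%), which changed no other count of calls by over 1.5 times. Clone 3 minus clone 1 had 1 with no filter (0.233%) and 1 with a pseudocount of 5 (0.173%), and clone 3 minus clone 2 had 1 with no filter (0.0697%).

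Some differences changed sign. In batch 1 alone HERC5 was at -0.19, PLSCR1 at -0.083 and SP100 at -0.0095, and IFIT5 was at 0.089 in batch 2 alone and 0.027 in the random block fit without replicate 1 of sgNTC clone 2. With single lines or libraries left out, the range was -0.056 to 1.05 for BST2, -0.15 to 0.31 for HERC5, -0.021 to 0.29 for HERC6, -0.33 to 0.032 for IFIT5, -0.29 to 1.11 for IFITM3, -0.020 to 0.58 for MX1, -0.00465 to 0.30 for PLSCR1 and -0.063 to 0.26 for SP100. The turns of BST2, HERC6, IFITM3 and MX1 came without sgRAC1 clone 3. The causes were not tested. With 3 lines a side and no counts, the depth behind low members such as BST2, IFITM1 or OAS1 is unknown, and a value of 0 sets no upper limit on their expression.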

Other observations

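Of the 56 genes in the interferon pathway lists, 29 were below the level filter. Of these 29, 12 had a higher and 4 a lower mean in the knockout lines, and 13 were listed at 0 in every library. The 4 lower ones were IRF7, SOCS1, GBP4 and GBP5. The same split over all genes below the filter was not counted. Replicate 1 of sgNTC clone 2, with 13608 genes above 0, lies on the RAC1-positive side, and its part in this split was not tested. IFNLR1 and GBP1, both among the higher ones, were picked after their values were seen. IFNLR1, the receptor chain for type III interferon, averaged 0.828 ± 0.530 TPM over the knockout and 0.156 ± 0.0870 TPM over the RAC1-positive lines (SD over n = 3 lines), and in the authors' deposited table its log2 fold change was 2.29 (SE 0.70, adjusted p = 0.0163). GBP1, a guanylate-binding protein, was at 0.487 ± 0.376 and 0.00974 ± 0.0169 TPM, with all 6 knockout libraries above all RAC1-positive ones. That split lay near 0. GBP1 was at 0.0914 and 0.0856 TPM in sgRAC1 clone 1, at 0.0585 in replicate 1 of the parental line and at 0 in 5 RAC1-positive libraries. How many genes below the filter split this way was not counted. Neither IFNLR1 nor GBP1 was tested here.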
